A study of Homo sapiens with 8 samples.

Results

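AHCY, BDKRB2, WDR6, LMF1 and TWIST2 are 5 protein-coding genes whose RNA carried LARP6 peaks in control hepatic stellate cells without an enriched counterpart after TGFβ1. They were chosen by their eCLIP values, from 24 genes that held a peak of the authors' control list with no enriched TGFβ1 cluster over it, and 8795 protein-coding genes had a tested cluster in any library. All clusters and listed peaks whose midpoint lay within the bounds of a member, on its strand, were taken. LARP6 was immunoprecipitated from hepatic stellate cells labelled wild type and cultured in DMEM with serum. The TGFβ1 group had received TGFβ1 at 5 ng/ml, and the control group is named untreated in one label and DMSO in another. Each group had 2 immunoprecipitated libraries with their own list of clusters, and 2 input libraries that enter only through the deposited values. The labels give no origin of the cells, no duration of treatment and no statement that replicates came from separate cultures.

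LARP6 belongs to the La-related proteins and is best known for holding a stem-loop near the start of collagen mRNAs, whose translation it takes part in. In eCLIP, ultraviolet light links a protein to the RNA it touches, the RNA is trimmed, and the fragments that come down with the protein are compared with a size-matched input. A cluster is a stretch where immunoprecipitated reads pile up, so a gene with little RNA in the cell gives few clusters even where LARP6 binds. The log2 folds over input and the −log10 p-values below are the authors' values for each cluster. Clusters whose log2 fold and −log10 p both reach 3 are called enriched. The number of tested clusters of a gene, enriched or not, stands in for its coverage, because the lists hold no read counts and the depth is unknown.

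The libraries differed in size. TGFβ1 replicates 1 and 2 held 31137 and 54536 tested clusters, and control replicates 1 and 2 held 51273 and 39880, of which 2.69% and 3.64% against 1.21% and 2.09% were enriched. Of 16 stellate cell and fibroblast markers, 13 had a tested cluster, and DES, RGS5 and LRAT, the last a marker of quiescent stellate cells, had none in any library. No hepatocyte marker (0 of 8) had a cluster. Of 7 endothelial and 8 macrophage and leukocyte markers, 1 each did. The 5 cholangiocyte markers together had 15 and 20 clusters in the TGFβ1 libraries against 2 and 5 in the control libraries, nearly all of them in KRT7 after TGFβ1, and EPCAM and KRT19 were at 0. The part of such cells in the results below was not tested.

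The values that chose the members were as follows. The 5 genes held 0 of the 1008 peaks of the TGFβ1 list and 6 of the 627 peaks of the control list. All 6 lacked an enriched TGFβ1 cluster over them, as did 65 of all 627 control-list peaks (10.4%). At all 6, both TGFβ1 folds were under both control folds, with a missing cluster counted as under, as at 147 of the 627 (23.4%), and since these folds chose the members nothing is read from it. The members together had 0 enriched clusters among 25 tested in TGFβ1 replicate 1 and 0 among 45 in TGFβ1 replicate 2, against 13 among 182 in control replicate 1 and 6 among 130 in control replicate 2. Among 184 protein-coding genes with an enriched cluster in both control libraries, 3.8% had none in either TGFβ1 library. These were the 5 members, RPL27 and TRIM55. Ranked by listed log2 fold among the 24 genes, AHCY stood at 1, BDKRB2 at 5, WDR6 at 6, LMF1 at 8 and TWIST2 at 10. The other ranks of the first 10 were NEAT1, THBS2, RPL27 and tRNA genes, which are not among the members. TWIST2, at a listed log2 fold of 3.76, lay just inside this range, and COL6A3, at 3.69, just outside it. Because the choice used this contrast, no test was made on it, and 2 against 2 libraries could in any case give no two-sided exact permutation p below 0.333.

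**Figure D1:**
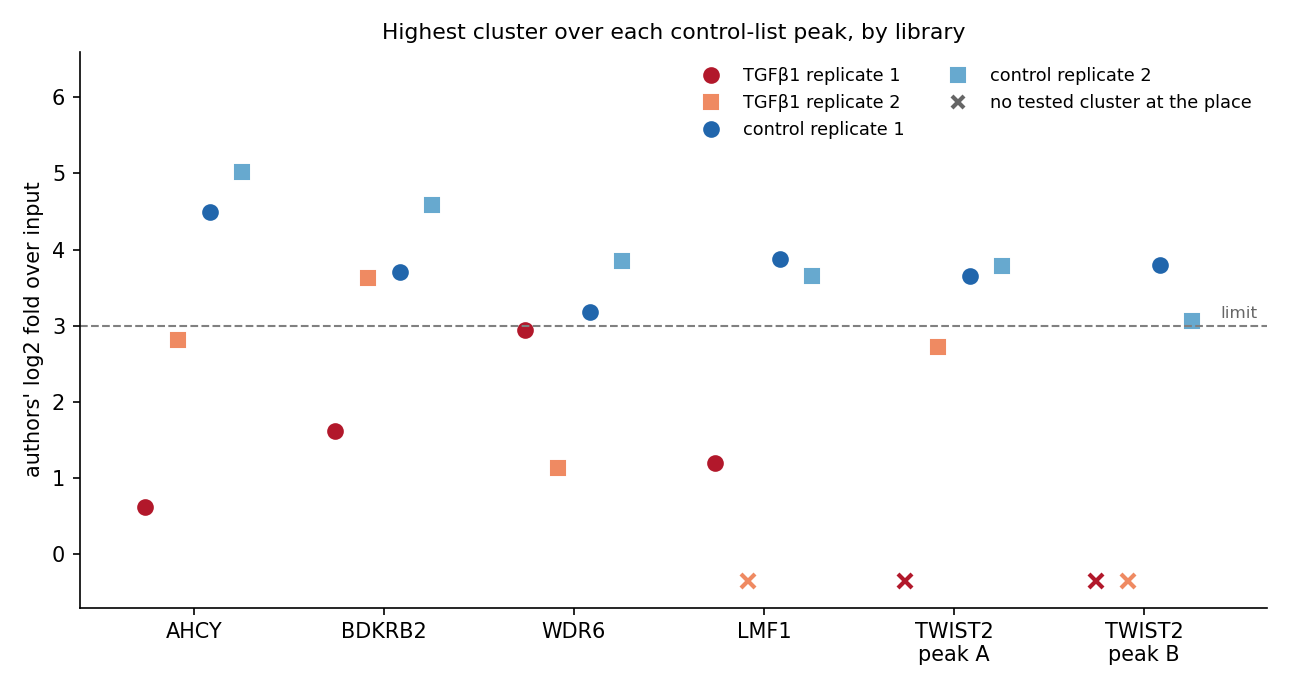
The highest cluster over each of the 6 control-list peaks, as the authors' log2 fold over input on the vertical axis, with 1 point per library and the limit of 3 as a dashed line. Crosses mark libraries with no tested cluster at the place, and all control points lie above all TGFβ1 points of the same peak, as at 23.4% of all control-list peaks, in folds that chose the members.

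AHCY encodes S-adenosylhomocysteine hydrolase, which splits the product left after methyl transfer from S-adenosylmethionine and so keeps cellular methylation going. It lies on the minus strand of chromosome 20 (GRCh38, 34231981 to 34311836). Its listed peak, 34290767 to 34290814, lay 21046 nt from the 5′ end of the gene bounds and 12565 and 12200 nt from the other annotated starts. The log2 fold there was 0.62 and 2.81 in TGFβ1 replicates 1 and 2, against 4.49 and 5.02 in control replicates 1 and 2. Means were 1.71 ± 1.55 in TGFβ1 and 4.76 ± 0.37 in control (SD, n = 2 each). TGFβ1 replicate 2 missed the call by its fold alone, since its −log10 p was 5.03, and that of TGFβ1 replicate 1 was 0.27. The 3 enriched clusters of control replicate 1 abut each other and form 1 site.

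The AHCY site was tested in all 4 libraries, and the gene had no fewer clusters on average after TGFβ1. Tested clusters numbered 3 and 8 in the TGFβ1 libraries and 4 and 5 in the control libraries. The groups overlap, and the shares were 1.22 ± 0.36 in TGFβ1 and 1.02 ± 0.33 in control, in clusters per 10000 tested clusters of the library (SD, n = 2 each). The other AHCY clusters of the TGFβ1 libraries had log2 folds of at most 1.89. The log2 ratio of mean cluster numbers, TGFβ1 over control, was 0.29 and turned to -0.58 without TGFβ1 replicate 2, so no direction is given.

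WDR6 encodes a WD-repeat protein that works with the methyltransferase FTSJ1 in 2′-O-methylation of tRNA. It lies on the plus strand of chromosome 3 (49007391 to 49015951) and is by far the shortest of the members. Its listed peak, 49007800 to 49007897, lay 458 nt from the 5′ end. The log2 fold there was 2.94 and 1.14 in the TGFβ1 libraries, with −log10 p of 1.53 and 0.44. In the control libraries it was 3.19 and 3.85, with −log10 p of 4.35 and 3.64. Means were 2.04 ± 1.27 in TGFβ1 and 3.52 ± 0.47 in control (SD, n = 2 each), and TGFβ1 replicate 1 lay just under the fold limit.

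WDR6 clusters near this peak recurred in every library. A neighbouring place, 49007996 to 49008092, had 1.62 and 0.53 in the TGFβ1 libraries against 3.55 and 3.35 in the control libraries, the last short of the p limit at 2.51. A further enriched cluster of control replicate 1, at 49012519 to 49012611, had a log2 fold of 3.75 there, 0.85 in control replicate 2 and no cluster in the TGFβ1 libraries. The highest WDR6 cluster of TGFβ1 replicate 2 lay elsewhere, with a log2 fold of 3.05 and a −log10 p of 1.80. All 3 WDR6 clusters of TGFβ1 replicate 1 overlapped a cluster of each other library.

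Tested clusters of WDR6 numbered 3 and 11 in the TGFβ1 libraries and 13 and 10 in the control libraries. The groups overlap in these raw numbers. Per 10000 clusters of the library the values were 0.963 and 2.02 against 2.54 and 2.51, which do not overlap, but the 95% Wilson interval of TGFβ1 replicate 2 (1.13 to 3.61) held both control values. This interval, like those below, covers counting error only.

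BDKRB2 encodes the bradykinin B2 receptor, a receptor coupled to G proteins that raises cell calcium when bradykinin binds. It lies on the plus strand of chromosome 14 (96204839 to 96244164). Its listed peak, 96243908 to 96244010, lay 205 nt before the gene's 3′ end. The log2 fold there was 1.62 and 3.63 in the TGFβ1 libraries and 3.70 and 4.58 in the control libraries. TGFβ1 replicate 2 was past the fold limit and missed the call by its −log10 p of 2.81, and it lay 0.07 below control replicate 1. Means were 2.62 ± 1.42 in TGFβ1 and 4.14 ± 0.62 in control (SD, n = 2 each).

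The cluster at the 3′ end was the only BDKRB2 cluster after TGFβ1. The gene had 1 tested cluster in each TGFβ1 library, against 23 and 19 in the control libraries. Per 10000 clusters these were 0.321 and 0.183 against 4.49 and 4.76, and no Wilson interval of a TGFβ1 library (upper ends 1.82 and 1.04) reached one of a control library (lower ends 2.99 and 3.05). All other control clusters were spread along the gene, and none of them was enriched. Of the 23 in control replicate 1, 4 overlapped a cluster of control replicate 2 (17.4%), against 30.3% of all clusters of control replicate 1. Most places thus did not recur between the control libraries, in BDKRB2 and over all clusters alike. In control replicate 2, 10 of the 19 had the log2 fold of 0.85 that was the commonest of that library.

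LMF1 encodes lipase maturation factor 1, a membrane protein of the endoplasmic reticulum that lipoprotein lipase and related lipases need to fold. It lies on the minus strand of chromosome 16 (853634 to 981613). Its listed peak, 914606 to 914748, lay near the middle of the gene, 66936 nt from the 5′ end of the bounds. TGFβ1 replicate 1 had a log2 fold of 1.20 there and TGFβ1 replicate 2 had no tested cluster. The control libraries had 3.88 and 3.65, with −log10 p of 3.92 and 3.20. Both control values passed the limits narrowly, and the TGFβ1 value had a −log10 p of 0.20.

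LMF1 had 9 and 6 tested clusters in the TGFβ1 libraries and 47 and 21 in the control libraries. Per 10000 clusters the values were 2.89 and 1.10 against 9.17 and 5.27, so the groups do not overlap, while the intervals of TGFβ1 replicate 1 (1.52 to 5.49) and control replicate 2 (3.44 to 8.05) do. Of the 47 clusters of control replicate 1, 5 overlapped a cluster of TGFβ1 replicate 1, 0 one of TGFβ1 replicate 2 and 6 one of control replicate 2. Over all clusters of control replicate 1 these shares were 25.3%, 32.4% and 30.3%. The LMF1 share was thus low between the control libraries as well, at 12.8%. The low number of TGFβ1 clusters in LMF1 holds the shares with the TGFβ1 libraries down. From the TGFβ1 side, 5 of 9 and 0 of 6 clusters overlapped one of control replicate 1, against 42.0% and 32.8% of all clusters. Over the 4 libraries, 25 LMF1 clusters also lay in LOC124900586, an overlapping protein-coding gene on the same strand, 9 in the lncRNA LOC105379535 and 4 in a pseudogene, so their gene is uncertain. The listed peak lay in none of them. Without clusters that lie in another gene on either strand, the log2 ratio of mean cluster numbers was -1.84, against -2.18 with them. That setting also dropped 20 clusters that lay in LMF1-AS1, a lncRNA on the opposite strand. The ratio without same-strand overlaps alone was not computed.

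**Figure D2:**
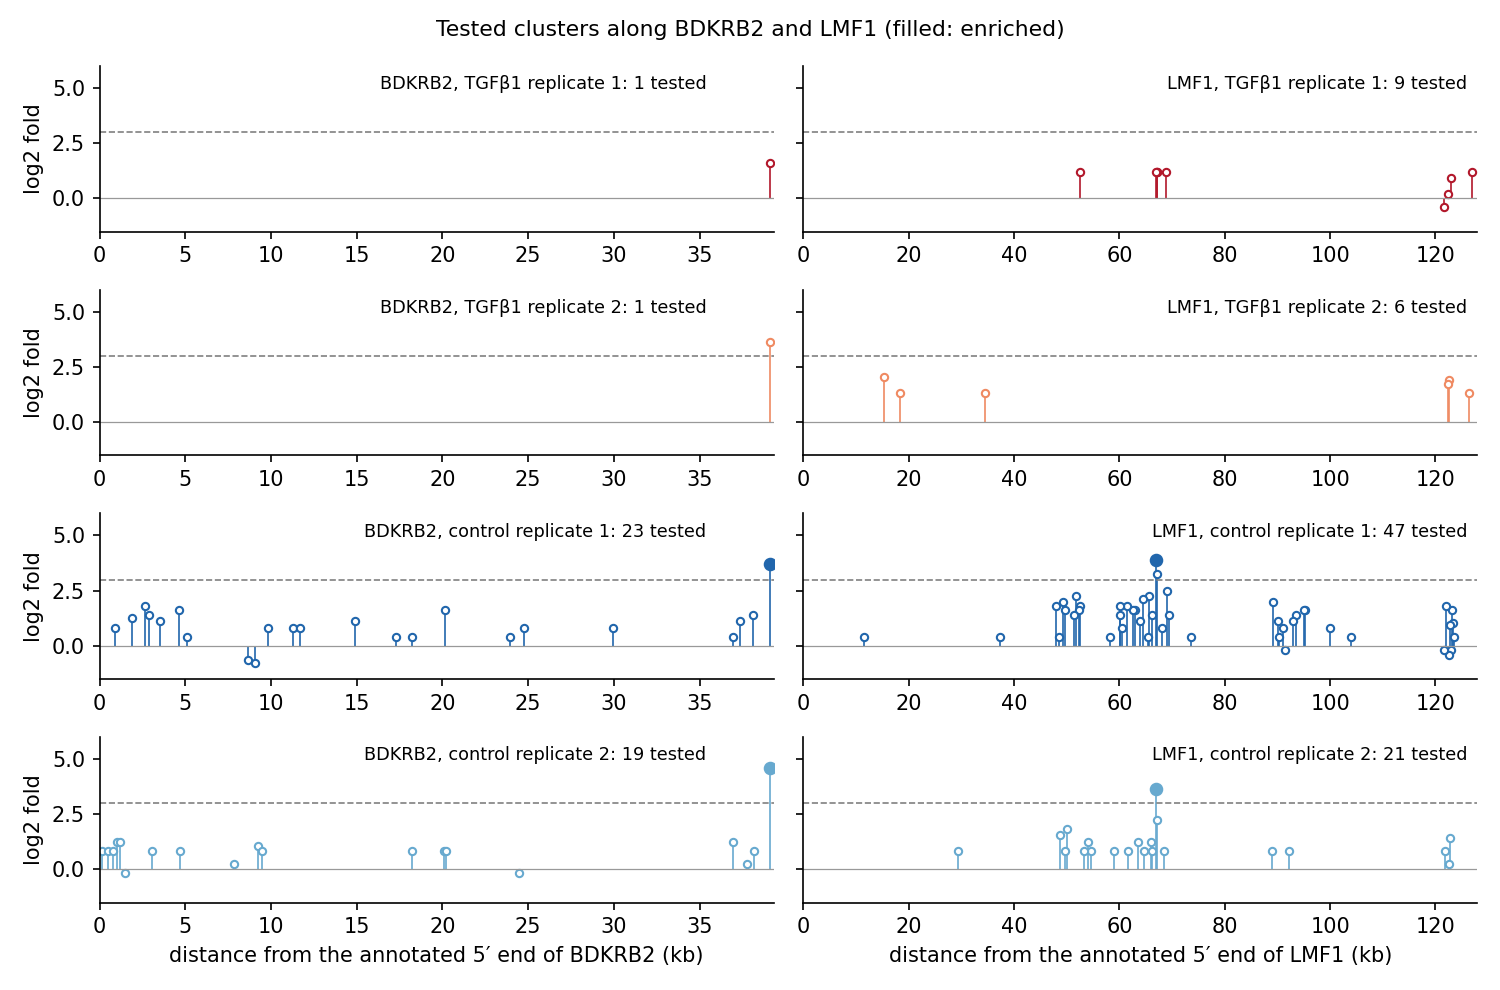
Tested clusters along BDKRB2 (left) and LMF1 (right) in each library, by distance from the 5′ end of the gene bounds in kb and by the authors' log2 fold over input, with enriched clusters filled and the limit of 3 dashed. BDKRB2 has a single cluster at its 3′ end in each TGFβ1 library, against 23 and 19 clusters along the gene in the control libraries.

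TWIST2 encodes a basic helix-loop-helix transcription factor of mesenchymal cells, related to TWIST1. It lies on the plus strand of chromosome 2 (238848085 to 238910534). It had most of the members' clusters and was the only member with 2 listed peaks. The first, 238871862 to 238871942, lay 23817 nt from the 5′ end, and the second, 238906685 to 238906764, lay 3810 nt from the 3′ end. At the first, TGFβ1 replicate 1 had no tested cluster and TGFβ1 replicate 2 had a log2 fold of 2.72 with a −log10 p of 1.33. The control libraries had 3.65 and 3.78 at the first peak. At the second, neither TGFβ1 library had a cluster, and the control libraries had 3.79 and 3.07.

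TWIST2 clusters numbered 9 and 19 in the TGFβ1 libraries and 95 and 75 in the control libraries. Per 10000 clusters these were 2.89 and 3.48 against 18.5 and 18.8, and the Wilson intervals of the groups lay apart, with 5.49 as the highest upper end in TGFβ1 and 15.0 as the lowest lower end in control. The mean was 3.19 ± 0.42 in TGFβ1 and 18.7 ± 0.20 in control (SD, n = 2 each), a 5.86-fold lower share after TGFβ1. The clusters lay along the whole gene in both groups. With the gene divided from its 5′ end into 4 stretches of equal length, these held 1, 4, 1 and 3 clusters in TGFβ1 replicate 1 and 4, 8, 2 and 5 in TGFβ1 replicate 2. They held 24, 35, 14 and 22 in control replicate 1 and 19, 21, 10 and 25 in control replicate 2.

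**Figure D3:**
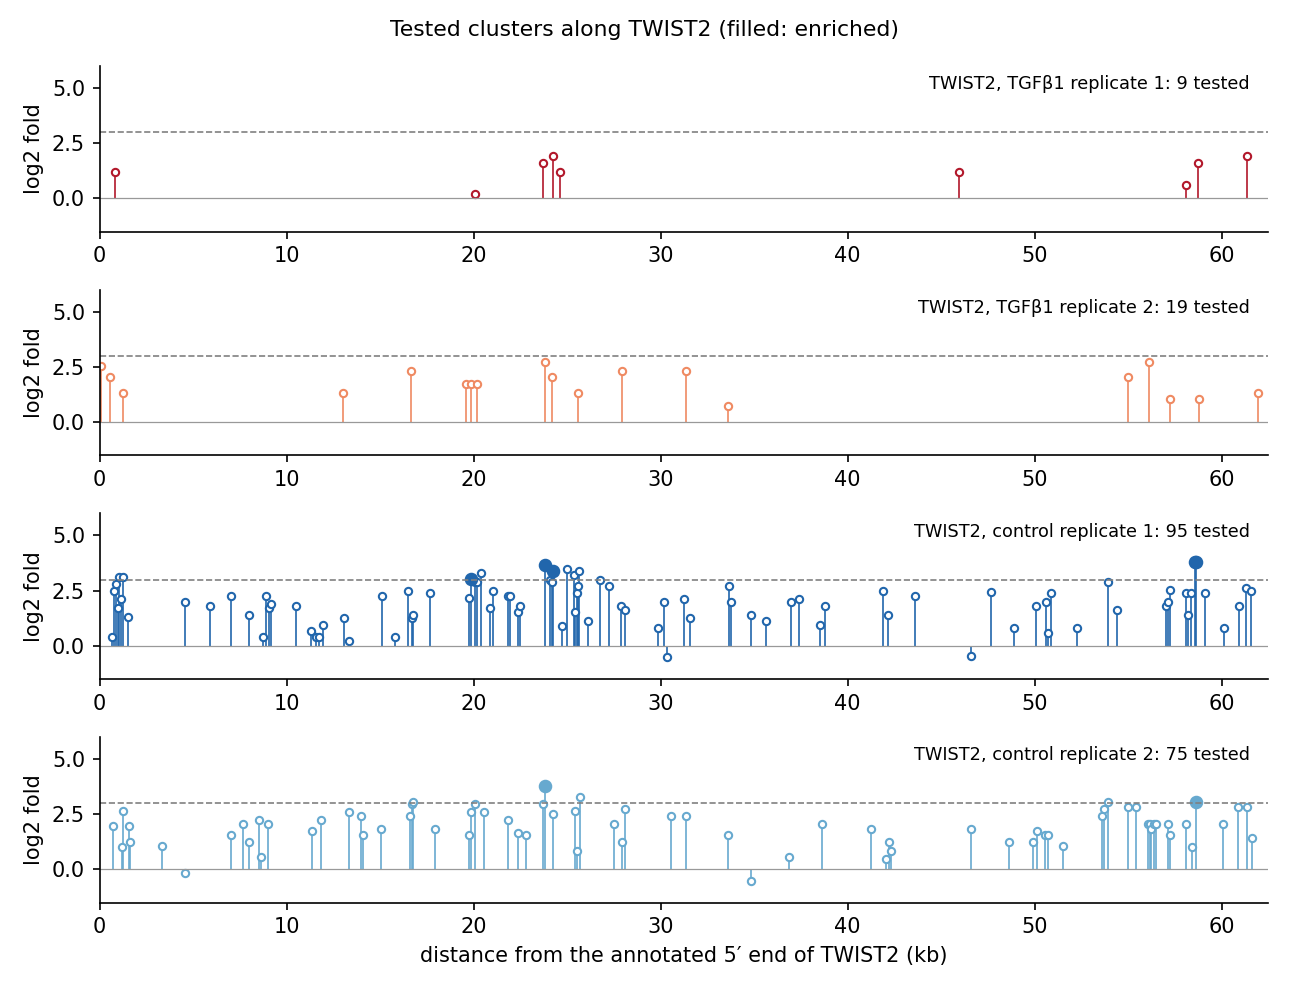
Tested clusters along TWIST2 in each library, by distance from the annotated 5′ end in kb and by the authors' log2 fold over input, with enriched clusters filled and the limit of 3 dashed. The 9 and 19 TGFβ1 clusters and the 95 and 75 control clusters both run the length of the gene, and only control libraries have enriched clusters.

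Many TWIST2 clusters had a log2 fold of at least 2 in the control libraries and in TGFβ1 replicate 2. This fold was reached by 0 of 9 and 9 of 19 clusters in the TGFβ1 libraries and by 45 of 95 and 39 of 75 in the control libraries. A log2 fold of 3 was reached by 0 and 0 in the TGFβ1 libraries and by 11 and 5 in the control libraries. Over all clusters of these libraries the shares were 10.8% and 15.1% against 4.64% and 8.47%. The median log2 fold of TWIST2 clusters was 1.20 and 1.72 in TGFβ1 libraries and 1.96 and 2.07 in control libraries, where the medians of all clusters were 0.94 and 0.82 against 0.38 and 0.85. Control replicate 1 had 3 further enriched clusters, of which 1 adjoined the second listed peak. At the others, 238867898 to 238868017 and 238872279 to 238872401, control replicate 2 had 2.58 and 2.51, short of the limit.

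TWIST2 places also recurred between the control libraries. Of the 95 clusters of control replicate 1, 41 overlapped a cluster of control replicate 2 (43.2%), against 30.3% of all clusters of that library. A cluster of TGFβ1 replicates 1 and 2 lay over 6 and 12 of the 95 (6.32% and 12.6%), against 25.3% and 32.4% of all clusters. The low number of TGFβ1 clusters in the gene holds these shares down, so no difference of place is read from them. From the TGFβ1 side, 5 of 9 and 10 of 19 clusters overlapped one of control replicate 1 (55.6% and 52.6%). Over all clusters of the TGFβ1 libraries these shares were 42.0% and 32.8%. Where a TGFβ1 cluster was present, its log2 fold was lower than that of control replicate 1 at 6 of 6 and 10 of 12 places. Over all clusters of control replicate 1 with a TGFβ1 cluster, the TGFβ1 fold was lower at 33.4% and 31.6% of places. Against control replicate 2 the TWIST2 folds of TGFβ1 replicates 1 and 2 were lower at 5 of 5 and 9 of 13 places, where those of all clusters were lower at 44.5% and 38.5%. The median difference, TGFβ1 minus control, was -1.51 and -1.24 against control replicate 1, and -1.34 and -0.46 against control replicate 2. The places of TGFβ1 replicate 2 include a listed peak whose folds chose the gene. Control folds of TWIST2 also started higher, with medians of 1.96 and 2.07 against 0.38 and 0.85 over all clusters. The places compared are thus unlike, and nothing is read from these fold differences.

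**Figure D4:**
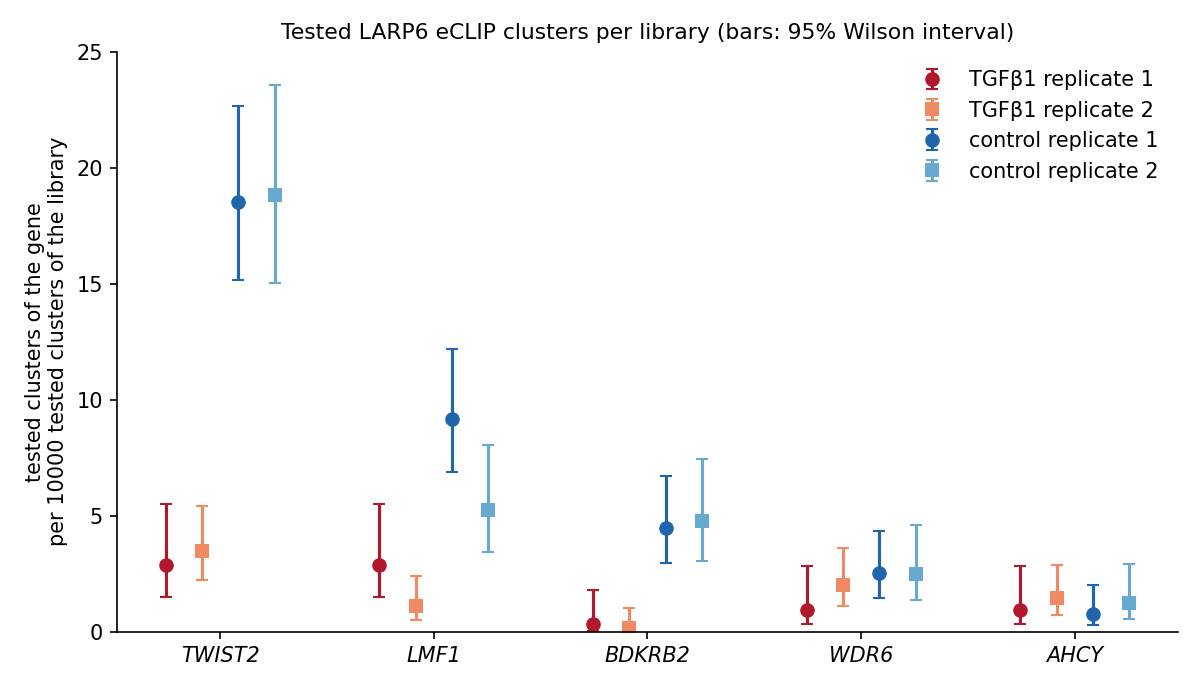
Tested clusters of each member per 10000 tested clusters of the library, with 1 point per library and 95% Wilson intervals that cover counting error only. TWIST2, LMF1, BDKRB2 and, by a small margin, WDR6 have lower values in both TGFβ1 libraries than in both control libraries, as do 29.6% of all genes with a cluster in both control libraries, and the AHCY values overlap.

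Set side by side, the members fell into no single pattern of coverage. TWIST2, LMF1 and BDKRB2 had fewer tested clusters in both TGFβ1 libraries than in both control libraries, in raw numbers and per 10000, which makes 3 of 5 in raw numbers and, with WDR6, 4 of 5 per 10000. Among 5474 protein-coding genes with a tested cluster in both control libraries, 21.8% were lower in raw numbers and 29.6% per 10000, and 24.3% were higher per 10000. Among the 840 of them with at least 10 clusters in both control libraries, 44.5% were lower and 19.2% higher. A lower share was thus common among genes well covered in the control libraries. These genes were taken by their control clusters alone, which by itself favours a lower share after TGFβ1. Genes well covered only after TGFβ1 are left out, and nothing is read from the counts of members.

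The sizes of the differences ranged widely. The log2 ratio of the share, TGFβ1 over control, was -4.20 for BDKRB2, -2.55 for TWIST2, -1.85 for LMF1 and -0.76 for WDR6, and the median over the 840 genes was -0.24. Of the 840 genes, with the member itself included, 19 had a ratio at or below that of BDKRB2 (2.26%), 65 at or below TWIST2 (7.74%), 101 at or below LMF1 and 261 at or below WDR6 (31.1%). The 840 genes, like these members, entered by their control clusters alone, which tilts the set towards lower ratios. The ranks and the median thus describe that set and are no neutral background. AHCY had too few clusters for this set. Whether the members' RNA was less abundant after TGFβ1 was not tested, and in such bulk samples fewer cells with a transcript and less of it per cell cannot be told apart.

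**Figure D5:**
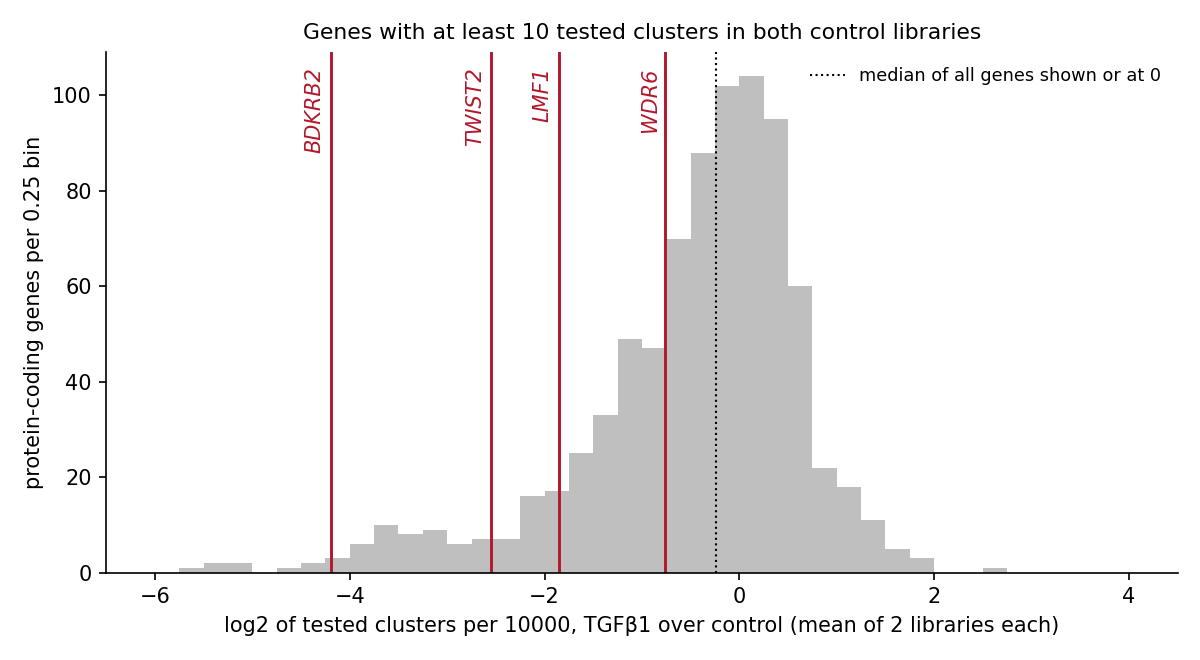
Protein-coding genes with at least 10 tested clusters in both control libraries, by the log2 ratio of tested clusters per 10000, TGFβ1 over control, in bins of 0.25. Red lines mark the 4 members in this set, from -4.20 for BDKRB2 to -0.76 for WDR6, the dotted line marks the median of -0.24, and 8 genes with no TGFβ1 cluster are not drawn.

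By length of the gene, WDR6 and TWIST2 were the most densely covered members in control, at 1.52 and 1.17 clusters per kb for WDR6 and 1.52 and 1.20 for TWIST2, which did not differ beyond their spread. BDKRB2 had 0.585 and 0.483 per kb, LMF1 had 0.367 and 0.164 and AHCY had 0.0501 and 0.0626. In the TGFβ1 libraries WDR6 had 0.350 and 1.28 clusters per kb and TWIST2 0.144 and 0.304. LMF1 had 0.0703 and 0.0469, AHCY 0.0376 and 0.100 and BDKRB2 0.0254 in each, so that AHCY and LMF1 overlapped. Of the members' clusters, 91.1% were more than 1000 nt from both gene ends, and 73.7% of the enriched ones were. Gene length, from 8561 nt for WDR6 to 127980 nt for LMF1, largely sets such shares. They were not compared with even spacing along the genes, so no preference for or against the ends is read from them. The enriched clusters near an end were those of WDR6 at the 5′ side and of BDKRB2 at the 3′ side. Only gene bounds were used, so exonic and intronic clusters were not separated.

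Of 115 genes in 5 lists, members left out, 107 were analysed, 68 had a tested cluster and 6 had an enriched cluster in any library. Over all protein-coding genes with a tested cluster, 946 of 8795 had an enriched cluster, a share close to that of the lists. The counts of lower and higher genes in the lists below are over genes with a cluster in both control libraries, of which 29.6% were lower and 24.3% higher over all 5474 such genes. The lists' counts were not tested against these shares.

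In the methionine cycle and methylation list of AHCY, 23 of 24 genes were analysed and 16 had a cluster. NNMT, which methylates nicotinamide and so uses up S-adenosylmethionine, was the only gene with enriched clusters, with 0 and 4 in the TGFβ1 libraries and 0 and 1 in the control libraries. It had 2 listed TGFβ1 peaks and 1 control peak. AHCYL1, a relative of AHCY that is not known as a hydrolase, had 5 and 6 tested clusters against 8 and 6. Of 10 genes with a cluster in both control libraries, 4 were lower and 1 was higher per 10000, against 29.6% and 24.3% of all such genes. Among the 4, AHCYL2, AMD1 and DNMT1 had no cluster after TGFβ1 and between 1 and 4 in each control library.

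In the kinin and Gq signalling list of BDKRB2, 23 of 24 genes were analysed and 16 had a cluster. The other bradykinin receptor, BDKRB1, had a single cluster, in control replicate 1, and KNG1, which encodes the kininogen precursor, had none. ITPR3, a calcium release channel of the endoplasmic reticulum, had 2 and 3 enriched clusters in the TGFβ1 libraries and 0 and 2 in the control libraries. PRKCA, a protein kinase activated by calcium and lipid, had 2 enriched clusters in TGFβ1 replicate 2 alone, and its tested clusters numbered 5 and 16 against 78 and 26. PLCB1, a phospholipase downstream of Gq, had 0 and 0 against 17 and 7. With ACE these made 3 of 9 genes that were lower per 10000, and 2 of 9 were higher, near the 29.6% and 24.3% of all such genes.

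In the tRNA modification list of WDR6, 23 of 27 genes were analysed, 12 had a cluster and none was enriched. FTSJ1, the partner of WDR6, had no tested cluster in any library. WDR4, part of the tRNA guanine methyltransferase, had 6 and 7 clusters against 5 and 3. Of the 6 genes with a cluster in both control libraries, 0 were lower and 1 was higher per 10000, against 29.6% and 24.3% of all such genes.

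In the lipase list of LMF1, all 20 genes were analysed and 9 had a cluster. LMF2, its paralogue, had 3 and 8 clusters against 3 and 3, and LPL had none. FURIN, a proprotein convertase that cleaves lipases and many secreted proteins, had 2 and 4 enriched clusters in the TGFβ1 libraries and none in control, with 20 and 13 tested clusters against 7 and 8, and 2 listed TGFβ1 peaks. With LMF2, CANX and CALR it made 4 of 7 genes that were higher per 10000, and 0 of 7 were lower, against 24.3% and 29.6% of all such genes.

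In the transcription factor list of TWIST2, 18 of 20 genes were analysed and 15 had a cluster. PRRX1, a homeobox factor of mesenchyme, had 4 and 4 tested clusters in the TGFβ1 libraries against 34 and 17 in control, and 1 enriched cluster in control replicate 1. Its relative PRRX2 had 0 and 1 against 18 and 8, and ZEB2, a repressor of epithelial genes, had 1 and 2 against 16 and 8. With ID2 these made 4 of 9 genes that were lower per 10000, and 0 of 9 were higher, against 29.6% and 24.3% of all such genes. ZEB1 had 19 and 39 against 46 and 26, which overlap. TCF12, a helix-loop-helix partner of TWIST proteins, had 2 enriched clusters in TGFβ1 replicate 2. TWIST1 was not analysed here.

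The genes most like each member in the course of their tested clusters over the 4 libraries were taken by the distance between log2 profiles centred on the gene. They came from 2288 protein-coding genes with at least 20 clusters in all. Nearest to TWIST2 was TTC7A, with 5 and 10 clusters in the TGFβ1 libraries against 52 and 44 in control (distance 0.10), followed by FAM20A and PGS1. Nearest to BDKRB2 was SVIL, with 4 and 4 against 87 and 58 (0.27), followed by FLRT2 and NEK10. Nearest to LMF1 was SLC66A2, with 3 and 2 against 15 and 6 (0.28), followed by TRAPPC12 and FRMD4A. Nearest to WDR6 was SEPTIN7, with 4 and 12 against 17 and 13 (0.22), followed by HNRNPH3 and KLF9. GOLPH3 had the same numbers as AHCY in every library, followed by ASXL1 and PAPPA2. Of these 15 genes, PAPPA2 had 3 enriched clusters in TGFβ1 replicate 2, and the other 14 had no enriched cluster in any library.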

How the data were processed

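LARP6 eCLIP was measured in 8 samples, of which the 4 immunoprecipitated libraries each have a cluster list. The tools cutadapt, STAR and UMI-tools and the build GRCh38 are named, without versions or order, per the submitters' processing notes. How peaks were called, set against input and joined over replicates is not given in the sources used here. No list has a header. By their values, the authors' deposited lists give a log2 fold over input and, capped at 400, a −log10 p-value for each cluster. They hold no counts, so depth and its precision are unknown.

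Gene bounds came from RefSeq (GRCh38.p14). The strand came from the RefSeq promoter table, or from the majority of at least 3 clusters. Clusters were assigned at their midpoint and overlaps needed 1 nt on the same strand. Where several clusters overlapped a peak, the highest fold was taken. Wilson intervals are at 95%. Coordinates are 1-based. Likeness used a pseudocount of 0.1 on clusters per 10000. Named genes were the members, up to 4 enriched genes per list, the 3 most alike genes per member and those at the limit of the choice. TRIM55, RPL27 and the list genes without enrichment were named after their values were seen. The members and lists were chosen with earlier results of these data known, and no test was made on the contrast that chose them. Alternatives were other limits, assignments and scalings, and each replicate left out. Code was checked on simulated data. Scripts ran under Python 3.11.15 with pandas 2.3.3 and NumPy 2.4.6, and matplotlib 3.10.9 drew the figures; SciPy 1.17.1 gave the intervals.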

Additional observations from a re-analysis of the deposited data

How the results depend on the processing

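The 5 members with an enriched cluster in both control libraries and in no TGFβ1 library became 4 with the log2 fold limit at 2, when the AHCY cluster of TGFβ1 replicate 2 was called. They became 1, AHCY, with the fold limit at 4 or the −log10 p limit at 5, and 3 with the −log10 p limit at 1.3, when clusters of BDKRB2 and WDR6 in TGFβ1 replicate 2 were called. The 6 genes of the pathway lists with an enriched cluster became 2 at a fold limit of 4. The share of all genes with fewer clusters after TGFβ1, scaled to the clusters of the library, was 29.6%. This scaled share was 44.5% among genes with at least 10 clusters in both control libraries and 40.6% to 43.1% with a replicate left out. In raw cluster numbers the share of all genes was 21.8%, and its range with a replicate left out was not computed. The number of members with fewer clusters in every TGFβ1 library was 3 of 5 in raw cluster numbers. This raw count was 3 to 5 with a replicate left out, the highest without TGFβ1 replicate 2. It is thus not to be set against the scaled shares of all genes. The log2 ratio of AHCY cluster numbers, 0.29, ran from -0.58 (without TGFβ1 replicate 2) to 0.83, a change of direction. That of the other members kept its direction when each library was left out, with ranges of -4.52 to -4.25 for BDKRB2, -3.24 to -2.16 for TWIST2, -2.65 to -1.49 for LMF1 and -1.94 to -0.06 for WDR6. The pathway genes with an enriched cluster were 4 to 6 with a replicate left out. The other counts kept within 1.5 times. Among them, the members' enriched clusters and the folds at their listed peaks chose the members, so their keeping is no support. No paired analysis was possible because the results come from no test: the members were chosen on this contrast. Depth is unknown, so a missing cluster does not show that LARP6 was absent.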

Other observations

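The authors' log2 folds fell on few distinct values. TGFβ1 replicates 1 and 2 had 2249 and 3683 distinct values among 31137 and 54536 clusters, and control replicates 1 and 2 had 1907 and 2076 among 51273 and 39880. The commonest value was held by 19.6% and 15.4% of clusters in the TGFβ1 libraries (1.20 and 1.31) and by 28.8% and 25.1% in the control libraries (0.38 and 0.85). In LMF1, 6 of 9 and 3 of 6 clusters of the TGFβ1 libraries and 9 of 47 and 12 of 21 of the control libraries sat at that value, and in TWIST2 3 of 9 and 4 of 19 against 5 of 95 and 2 of 75. Several LMF1 and BDKRB2 clusters in different places thus had the same fold.

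PDGFRA, which encodes a growth factor receptor of fibroblasts and stands in the stellate cell and fibroblast list, had 6 and 15 tested clusters in the TGFβ1 libraries against 42 and 33 in control, and was the only gene of that list with fewer in both TGFβ1 libraries per 10000. ACTA2, TAGLN and SPARC were higher in both, with 25 and 27 against 13 and 14 for ACTA2, 13 and 17 against 11 and 11 for TAGLN and 37 and 46 against 28 and 30 for SPARC. Of 12 genes of this list with a cluster in both control libraries, 1 was thus lower and 3 were higher per 10000. Over all such genes 29.6% were lower and 24.3% higher, and nothing is read from the list's counts.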
